A study of Mus musculus with 8 samples.

Results

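Neurog3, Sox3, Nanos3, Lin28a, Upp1 and Sox15, genes used to mark progenitor spermatogonia, were read in sorted germ cells of mice with a knockout of Kdm1a, the gene of a histone demethylase, and of controls. They were chosen by name as the rows of the deposited FPKM table that carry these symbols. All 6 were found among 17589 genes, and all 6 averaged at least 1 FPKM across the libraries, which is the filter used for testing. FPKM divide fragments by transcript length and library size, so levels of different genes can be set side by side. The design asked how the knockout of Kdm1a alters gene expression in postnatal spermatogonia. The Kdm1a KO group, called conditional knockouts in the protocol, and the Control group had 4 libraries each. Both groups were C57BL/6 mice at 6 days after birth that carried the GOF/deltaPE-Oct4/GFP reporter, and GFP-positive germ cells were sorted from digested testes. The promoter that drove the deletion, the deleted exons, the alleles of the controls and any pooling of animals are unstated in the labels. The labels do not state that libraries came from separate animals, so p-values cover the spread between these libraries alone, part or all of which may be technical.

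Undifferentiated spermatogonia comprise stem cells, which renew the pool, and progenitors, which arise from them and are poised to differentiate in response to retinoic acid. Neurogenin 3, the protein of Neurog3, is a basic helix-loop-helix (bHLH) transcription factor that binds DNA at E-boxes together with an E protein, and in the testis it marks progenitors. SOX3 and SOX15 are HMG-box transcription factors, and loss of SOX3 in mice blocks spermatogonia before differentiation. NANOS3 and LIN28A act on RNA: NANOS3 works with PUMILIO proteins and the CCR4-NOT deadenylase, and LIN28A blocks maturation of the let-7 microRNAs. UPP1, uridine phosphorylase, splits uridine into uracil and a sugar phosphate.

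Kdm1a RNA was low in the libraries labelled as knockouts. It was at 14.2, 14.1, 17.3 and 14.9 FPKM in knockout replicates 1 to 4, against 53.7, 54.0, 92.0 and 48.1 FPKM in control replicates 1 to 4. That was a 4.10-fold lower mean (log2 change -1.92, limma adjusted p = 6.88e-05). The germ cell markers Ddx4 and Dazl were high in every library. They come from a list of 8 germ cell markers, of which 4 differed at a limma adjusted p under 0.05. Ddx4 averaged 186.6 ± 4.06 FPKM in the knockouts and 197.8 ± 16.8 in the controls (SD, n = 4 each), and it was not called (adjusted p = 0.496). Pou5f1, which encodes OCT4, averaged 47.4 ± 7.66 FPKM in the knockouts and 60.5 ± 17.1 in the controls. It missed the threshold (adjusted p = 0.282) and passed it when control replicate 1 was left out (adjusted p = 0.0244). Knockout replicate 2 stood apart on the second principal component and listed 1642 transcripts at 0, where the other libraries listed 506 to 734. The step size of low FPKM gave a depth of 45250000 to 63000000 fragments in the knockouts and 60750000 to 67000000 in the controls.

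Of 13483 genes tested, 5052 (37.5%) passed limma's test at an adjusted p under 0.05 (Benjamini-Hochberg), hereafter called, 3417 (25.3%) higher and 1635 (12.1%) lower in the knockouts. Log2 changes below are differences of log2(FPKM + 1), knockout minus control, a scale that compresses changes of low genes. Folds compare mean FPKM. The median over all genes tested was 0.09. The balance of calls depended on how libraries were scaled: 67.6% of calls were higher with the values as deposited, 51.8% after median-ratio scaling, 50.1% after quantile normalization, 55.5% with small RNA genes removed and 98.4% with equal totals. With equal totals every library was set to the same FPKM sum. With small RNA genes removed, the sums over the remaining genes were also set equal. Of the genes tested, 131 were small RNA genes. The deposited sums were 700950 to 1106700 in the knockouts and 1067300 to 1767000 in the controls. The median of all genes became 0.74 with equal totals and -0.02 with small RNA genes removed.

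Neurog3, Nanos3, Lin28a and Sox3 fell in the knockouts, and Upp1 and Sox15 were not called. Neurog3 was 27.9-fold lower, Nanos3 2.29-fold, Lin28a 2.05-fold and Sox3 1.34-fold. So 4 of the 6 genes were called lower, beside 12.1% of all genes tested. The genes were chosen with earlier results of these data known, so this comparison is a description and no test of the set. In these bulk samples fewer cells of a type and less RNA per cell cannot be told apart.

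**Figure D1:**
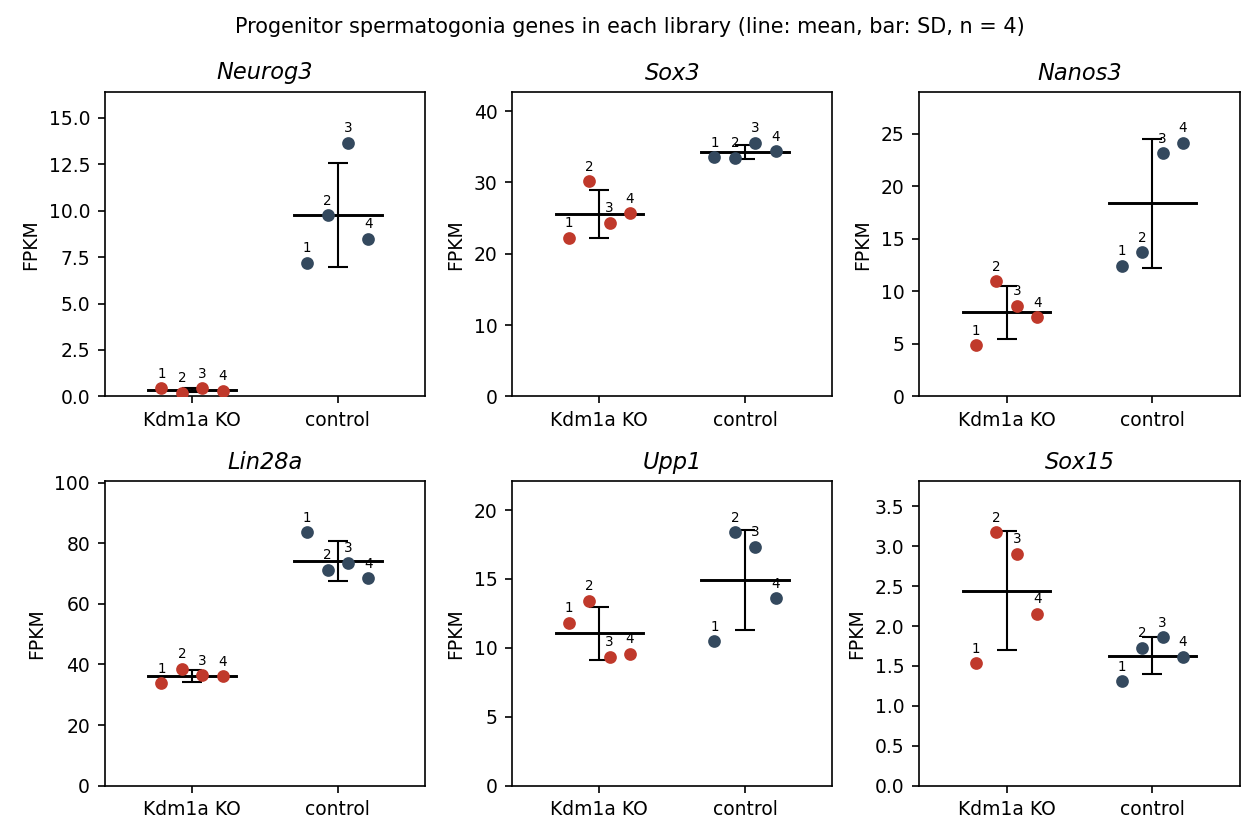
FPKM of the 6 genes in each library, with a panel and a linear axis from 0 for each gene, Kdm1a KO libraries left and control libraries right. Points carry replicate numbers, horizontal lines are means and bars are SD (n = 4 each). All 4 knockout values of Neurog3 lie between 0.206 and 0.445 FPKM, under the lowest control value of 7.19, and the groups of Upp1 and Sox15 overlap.

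The stretch before the start of transcription is shown for the 3 genes that fell at least 2-fold in mean FPKM, Neurog3, Nanos3 and Lin28a. Each run is the 250 bases upstream of the start in RefSeq on GRCm38.p6, the assembly of the deposited values' mm10 build. It is read 5′ to 3′ on the gene's own strand, with E-boxes (CANNTG, the kind of site that bHLH dimers bind) in capitals.
Neurog3: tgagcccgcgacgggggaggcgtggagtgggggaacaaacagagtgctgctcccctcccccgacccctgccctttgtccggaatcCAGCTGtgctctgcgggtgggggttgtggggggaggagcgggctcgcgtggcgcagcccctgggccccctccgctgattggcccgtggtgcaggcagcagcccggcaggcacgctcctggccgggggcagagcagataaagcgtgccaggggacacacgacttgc
Nanos3: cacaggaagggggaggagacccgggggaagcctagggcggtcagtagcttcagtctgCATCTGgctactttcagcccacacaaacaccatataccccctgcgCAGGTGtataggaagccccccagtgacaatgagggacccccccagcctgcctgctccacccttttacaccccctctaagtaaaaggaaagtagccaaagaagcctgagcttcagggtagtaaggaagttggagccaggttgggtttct
Lin28a: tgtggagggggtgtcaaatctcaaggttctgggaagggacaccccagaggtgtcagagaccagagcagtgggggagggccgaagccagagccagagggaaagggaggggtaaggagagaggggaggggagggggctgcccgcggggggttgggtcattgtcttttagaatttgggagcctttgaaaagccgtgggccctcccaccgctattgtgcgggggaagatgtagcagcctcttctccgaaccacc
They lie at chr10:62132840-62133089 on the plus strand for Neurog3, chr8:84176553-84176802 on the minus strand for Nanos3 and chr4:134018817-134019066 on the minus strand for Lin28a. The RefSeq start of Nanos3 differs from the outermost GENCODE M21 start, so its window lies inside the GENCODE span of the gene given below, and that of Lin28a reaches into the edge of the gene's span. RefSeq windows were found for 5 of the 6 genes.

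The Neurog3 window held 1 E-box, CAGCTG, 165 to 160 bases before the start. The Nanos3 window held 2, CATCTG and CAGGTG, the Lin28a window held 0 and the Sox15 window held 1, CAGGTG, 16 to 11 bases before the start, and the 3 windows of Upp1 held 1 or 2 each. E-boxes occurred in 66.2% of all 32851 RefSeq windows of this length, and CAGGTG, which is also counted as an E-box, in 17.2%. Both strands were also searched for ACAAAG and ACAATG, forms of the SOX motif found in 16.5% and 10.7% of windows. ACAAAG occurred on the opposite strand of Neurog3 and ACAATG in Nanos3 and, on the opposite strand, in Lin28a. CCAAT, in 33.8% of windows, occurred in Neurog3 alone among the 5 genes with windows, and AGGTCA and TATAAA, in 14.0% and 12.4%, in none of them. The share of G and C was 71.2% in Neurog3, 61.2% in Lin28a and 56.4% in Nanos3, against a median of 52.4% over all windows. It was 55.6% in Sox15 and 62.4%, 55.6% and 52.8% in the 3 windows of Upp1, so it did not set the genes that fell apart. The motif sites are matches of letters and were not tested as binding sites.

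Neurog3 (ENSMUSG00000044312, chromosome 10 from 62133090 to 62134763 in mm10, plus strand) was at 0.445, 0.206, 0.439 and 0.313 FPKM in knockout replicates 1 to 4, against 7.19, 9.76, 13.7 and 8.49 FPKM in control replicates 1 to 4. The groups did not overlap, and knockout replicate 2 was the lowest library. Groups were apart in this way, with the knockouts lower, for 12.5% of genes tested, and with the knockouts higher for 26.1%. The means were 0.351 ± 0.114 FPKM in the knockouts and 9.78 ± 2.79 FPKM in the controls, so the knockouts kept 3.59% of the control level. The log2 change was -2.97 (95% interval -3.35 to -2.58, SE 0.17, limma adjusted p = 6.77e-06), the 4th largest fall on that scale among all genes tested. Neurog3 stood at percentile 9.02 of all genes by level in the knockouts and at percentile 58.9 in the controls. The values correspond to an estimated 39, 13, 36 and 21 fragments in knockout replicates 1 to 4 and 620, 858, 1272 and 717 in control replicates 1 to 4, so the knockout levels rest on few fragments but not on 0.

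Neurog3 lies wholly within the span of Fam241b (2010107G23Rik in the table, 62107655 to 62143920 on the minus strand), a gene named after its values were seen. Exons of the overlapping genes share 273 bases. The library kit marks strand, but the labels do not say whether strand was used in the quantification, so signal in these bases cannot be assigned for certain. Fam241b averaged 10.1 ± 2.15 FPKM in the knockouts and 25.1 ± 3.52 FPKM in the controls. It was 2.48-fold lower (log2 change -1.24, adjusted p = 0.000235), and the groups did not overlap. Of its 5 deposited transcripts, the 1 that shares bases with Neurog3 exons averaged 0.0360 FPKM in the knockouts and 0.328 in the controls. The most abundant, which shares 0 bases with them, averaged 5.78 ± 1.79 FPKM in the knockouts, 44.4% of its control level. The other tested gene within 100 kb of Neurog3, Tspan15, was not called.

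Sox3 (ENSMUSG00000045179, chromosome X from 60891366 to 60893430, minus strand) has a single exon. It was at 22.2, 30.2, 24.4 and 25.6 FPKM in knockout replicates 1 to 4, against 33.5, 33.4, 35.6 and 34.3 FPKM in control replicates 1 to 4. The control libraries lay close together, and knockout replicate 2 came nearest to them without reaching them. The means were 25.6 ± 3.37 and 34.2 ± 0.985 FPKM in knockouts and controls, and the knockouts kept 74.8% of the control level (log2 change -0.41, 95% interval -0.63 to -0.20, SE 0.095, adjusted p = 0.00822). The call held after median-ratio scaling (-0.53, adjusted p = 0.00104), quantile normalization (-0.48, adjusted p = 0.00166) and removal of small RNA genes (-0.54, adjusted p = 0.00151). With equal totals the sign turned (0.29, adjusted p = 0.292).

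Sox15 (ENSMUSG00000041287, chromosome 11 from 69655314 to 69656727, plus strand) was at 1.54, 3.18, 2.91 and 2.15 FPKM in knockout replicates 1 to 4, against 1.31, 1.73, 1.86 and 1.62 FPKM in control replicates 1 to 4. Only knockout replicate 1 lay within the control range. The means were 2.44 ± 0.745 FPKM in the knockouts and 1.63 ± 0.234 FPKM in the controls. The difference was not called (log2 change 0.37, 95% interval 0.0043 to 0.73, adjusted p = 0.103), although it was without knockout replicate 1 (0.51, adjusted p = 0.0198) and with equal totals (0.84, adjusted p = 0.000557). Its end shares 31 exon bases with Mpdu1 on the opposite strand, named after its values were seen, which averaged 46.4 ± 12.3 FPKM in the knockouts and 33.5 ± 4.20 FPKM in the controls (adjusted p = 0.0801). An estimated 69 to 122 fragments in the knockouts and 58 to 89 in the controls stood behind Sox15.

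Nanos3 (ENSMUSG00000056155, chromosome 8 from 84173731 to 84185217, minus strand) was at 4.90, 10.99, 8.65 and 7.54 FPKM in knockout replicates 1 to 4, against 12.5, 13.8, 23.2 and 24.2 FPKM in control replicates 1 to 4. The groups did not overlap, but knockout replicate 2 and control replicate 1 came close, and control replicates 3 and 4 were well above the other controls. The means were 8.02 ± 2.53 and 18.4 ± 6.13 FPKM in knockouts and controls. The knockouts kept 43.6% of the control level (log2 change -1.09, 95% interval -1.69 to -0.50, SE 0.26, adjusted p = 0.0104). The call held after median-ratio scaling (-1.2, adjusted p = 0.00455), quantile normalization (-1.22, adjusted p = 0.00594) and removal of small RNA genes (-1.22, adjusted p = 0.00247). With equal totals the call was lost (-0.44, adjusted p = 0.117).

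Lin28a (ENSMUSG00000050966, chromosome 4 from 134003330 to 134018841, minus strand) was at 33.7, 38.6, 36.4 and 36.2 FPKM in knockout replicates 1 to 4, against 83.7, 71.3, 73.6 and 68.6 FPKM in control replicates 1 to 4. Both groups were tight and far apart. The means were 36.2 ± 1.99 and 74.3 ± 6.61 FPKM, and the knockouts kept 48.8% of the control level (log2 change -1.01, 95% interval -1.20 to -0.83, SE 0.083, adjusted p = 3.08e-05). The longer of its 2 deposited transcripts held 98.5% of the signal in the knockouts and 98.9% in the controls. Lin28a shares 234 exon bases with Gm13061 on the opposite strand, named after its values were seen, which was at 0.339 ± 0.170 FPKM in the knockouts and 0.616 ± 0.240 FPKM in the controls and was too low to be tested. The call of Lin28a held after median-ratio scaling (-1.13, adjusted p = 2.02e-05), quantile normalization (-1.08, adjusted p = 2.85e-05) and removal of small RNA genes (-1.15, adjusted p = 0.000138). With equal totals it was lost (-0.30, adjusted p = 0.265).

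Upp1 (ENSMUSG00000020407, chromosome 11 from 9118103 to 9136170, plus strand) was at 11.8, 13.4, 9.36 and 9.59 FPKM in knockout replicates 1 to 4, against 10.5, 18.4, 17.3 and 13.6 FPKM in control replicates 1 to 4. Control replicate 1 lay among the knockouts, and the other controls lay above all 4 of them. The means were 11.05 ± 1.93 FPKM in the knockouts and 14.95 ± 3.63 FPKM in the controls, and the difference was not called (log2 change -0.39, 95% interval -0.79 to 0.014, adjusted p = 0.117). It was called without control replicate 1 (-0.54, adjusted p = 0.0314) and with small RNA genes removed (-0.51, adjusted p = 0.045), and its sign turned with equal totals (0.28, adjusted p = 0.316). The most abundant of its 5 deposited transcripts held 56.3% of the gene's signal in the knockouts and 51.8% in the controls.

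**Figure D2:**
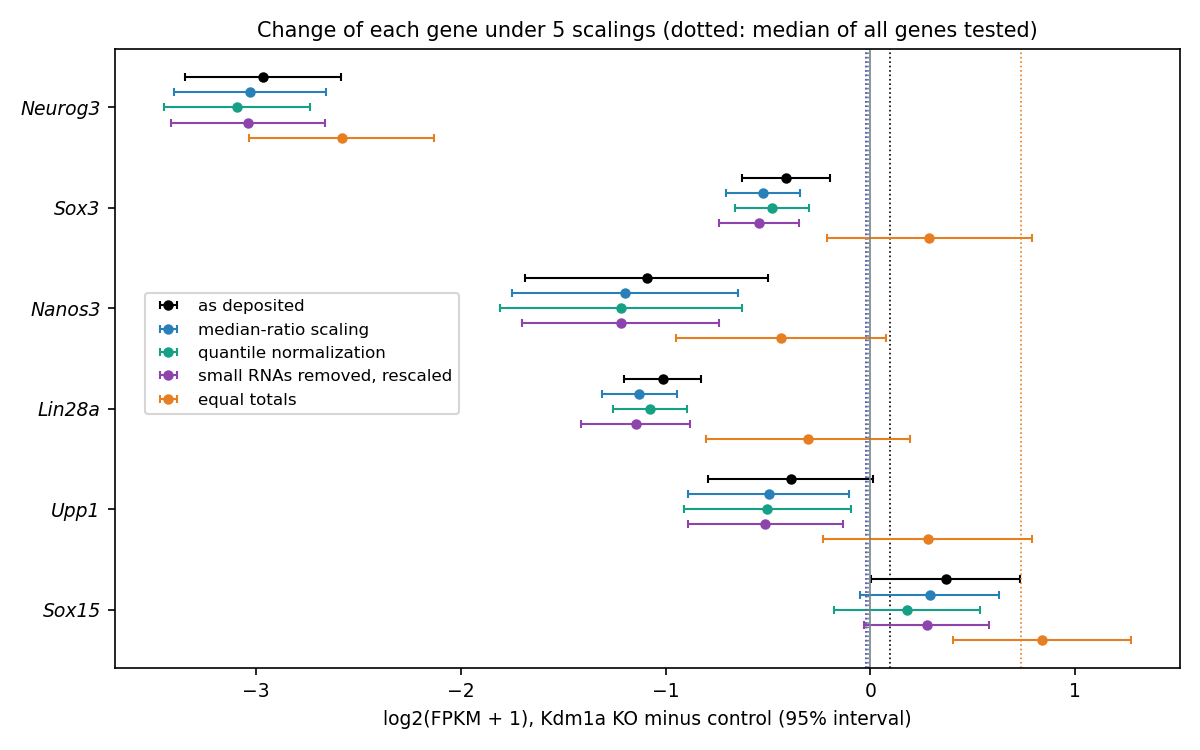
Difference of log2(FPKM + 1), Kdm1a KO minus control, for the 6 genes under 5 scalings of the libraries, with 95% intervals; dotted lines are the median of all genes tested under the scaling of the same colour. Neurog3 lies between -3.09 and -2.58 under all 5, while equal totals, with a median of all genes at 0.74, puts Sox3 at 0.29, against -0.41 as deposited.

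Changes were also set against the median of all genes under each scaling. The log2 change of Neurog3 minus that median was -3.06 with the values as deposited and -3.32 with equal totals. It was -1.19 and -1.17 for Nanos3, -1.11 and -1.04 for Lin28a, -0.51 and -0.45 for Sox3 and -0.48 and -0.46 for Upp1 under these same scalings. For Sox15 it was 0.27 and 0.10.

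A ratio within a library does not depend on scaling. Per 1000 FPKM of Ddx4, the germ cell RNA helicase, Neurog3 was at 1.87 ± 0.584 in the knockouts and 49.3 ± 12.2 in the controls. Lin28a was at 194.3 ± 12.3 and 377.6 ± 44.2 on the same measure, Nanos3 at 43.0 ± 13.6 and 92.1 ± 25.9, and Sox3 at 137.3 ± 19.3 and 173.7 ± 11.4, each in knockouts and controls. The groups did not overlap for these 4 genes. They did for Upp1, at 59.2 ± 10.4 in the knockouts and 76.3 ± 21.9 in the controls, and for Sox15, at 13.1 ± 3.94 and 8.28 ± 1.31. How often such ratios stand apart over all genes was not computed. In FPKM the groups did not overlap, in either direction, for 38.6% of genes tested.

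The genes ranked differently by level in the groups. In the knockouts the order was Lin28a, Sox3, Upp1, Nanos3, Sox15 and Neurog3, with Upp1 and Nanos3 overlapping between libraries. In the controls it was Lin28a, Sox3, Nanos3, Upp1, Neurog3 and Sox15, with Nanos3, Upp1 and Neurog3 overlapping. Neurog3 was at 6.48% to 28.9% of the Sox15 level in the knockouts and at 525.1% to 733.6% of it in the controls. Against Lin28a it was at 0.534% to 1.32% in the knockouts and 8.59% to 18.6% in the controls.

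The genes nearest to Neurog3 across the 8 libraries, by the root mean square difference of log2(FPKM + 1) after each gene was centred on its control mean, were Clic6 (0.417), Grik3 (0.555), Rin2 (0.604), Gjb2 (0.607) and Chrna4 (0.633). They encode a chloride channel family protein, a kainate receptor subunit, a RAB5 regulator, a gap junction protein and a nicotinic receptor subunit. Clic6 averaged 2.67 ± 0.406 FPKM in the knockouts and 19.8 ± 2.81 in the controls. Gjb2 averaged 0.265 ± 0.0658 FPKM in the knockouts and 5.02 ± 1.22 in the controls, 18.9-fold lower. The likeness rests mostly on the difference between groups, which all 5 share with Neurog3, and it is a description.

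**Figure D3:**
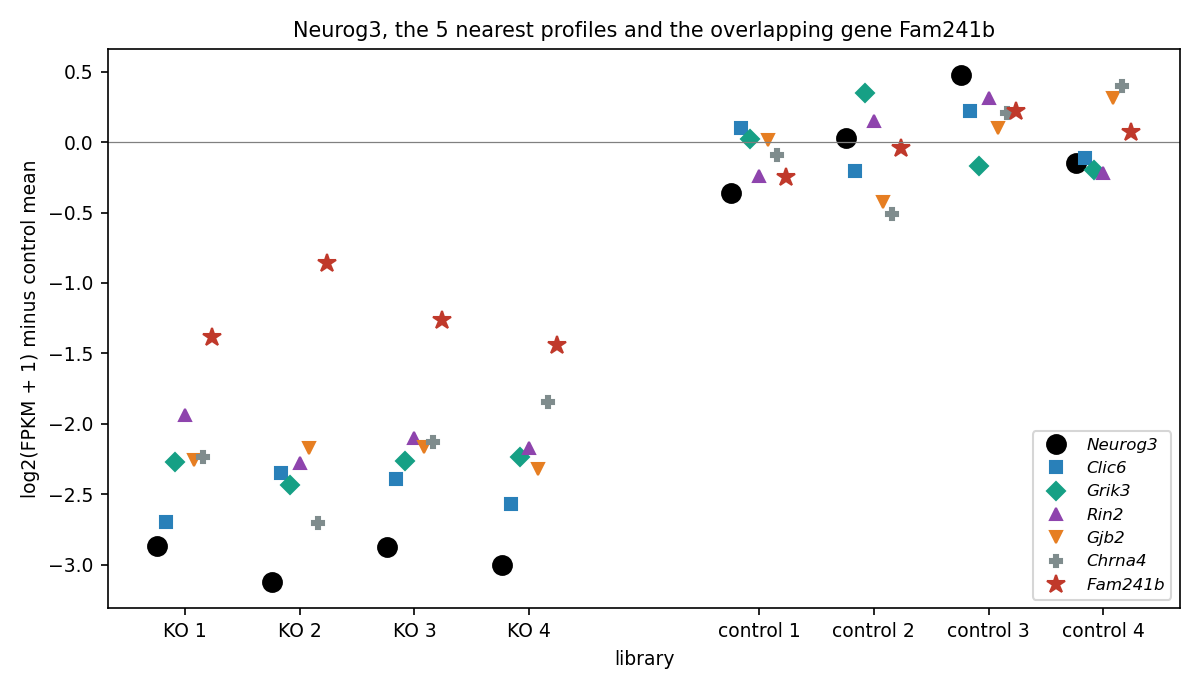
log2(FPKM + 1) minus the gene's control mean in each library, knockout libraries left and control libraries right, for Neurog3, the 5 genes of nearest profile and the overlapping gene Fam241b. Neurog3 (large black circles) is the lowest of the 7 in every knockout library, and Fam241b, with a change of -1.24, is the highest of them there.

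Other genes of progenitor and undifferentiated spermatogonia moved both ways. Of 12 tested, 6 were lower, 2 higher and 4 not called, beside 12.1% of all genes lower and 25.3% higher, and with equal totals 4 were higher and 1 lower. Zbtb16, a zinc finger factor needed to maintain spermatogonia, averaged 22.3 ± 7.21 FPKM in the knockouts and 61.2 ± 7.62 FPKM in the controls (adjusted p = 0.00089). Ddit4, an inhibitor of mTORC1, averaged 9.98 ± 1.90 and 21.6 ± 3.49 FPKM, and Glis3, a zinc finger factor, 18.6 ± 2.81 and 35.4 ± 3.56 FPKM in knockouts and controls, but both lost their calls with equal totals (adjusted p = 0.183 and 0.46). Magea4, an X-linked cancer-testis antigen, went the other way, with 12.5 ± 1.78 FPKM in the knockouts and 1.33 ± 0.0749 in the controls (9.40-fold higher, adjusted p = 4.09e-06). The median change of the list was -0.44, or -0.54 relative to the median of all genes, and with equal totals 0.25, or -0.49 relative to it.

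The stages on either side were read the same way. Of 16 tested stem cell genes, 7 were lower, 2 higher and 7 not called, beside 12.1% of all genes lower and 25.3% higher. Their median change was -0.36, and with equal totals 4 were higher and 2 lower. Without knockout replicate 3, 5 of them were called in all, 2 higher and 3 lower. The lower calls numbered 4 without knockout replicates 1 or 4 or control replicates 1, 3 or 4. They numbered 7 without knockout replicate 2 and 9 without control replicate 2. Tspan8, a tetraspanin of the stem cell surface, averaged 17.2 ± 5.66 FPKM in the knockouts and 5.35 ± 1.61 in the controls, and Bcl6b, a repressor induced by GDNF, 41.8 ± 6.37 and 23.3 ± 2.46 FPKM. Ret, the GDNF receptor kinase, averaged 23.2 ± 4.25 FPKM in the knockouts and 40.1 ± 8.82 in the controls, and Egr4 22.95 ± 8.24 and 42.9 ± 8.10 FPKM, and with equal totals both lost their calls (adjusted p = 0.855 and 0.419).

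Of 10 differentiating genes, 3 were higher, 0 lower and 7 not called, beside 25.3% of all genes higher and 12.1% lower. Their median change was -0.07. Rhox13, an X-linked homeobox gene, averaged 63.0 ± 8.90 FPKM in the knockouts and 18.2 ± 0.683 in the controls. Sohlh2, a bHLH factor of differentiation, averaged 101.5 ± 14.7 and 52.9 ± 5.01 FPKM, and Prss50, a testis serine protease, 4.09 ± 1.09 and 1.498 ± 0.572 FPKM. Kit, named after its values were seen, had the largest fall of the list. It averaged 26.7 ± 7.68 FPKM in the knockouts and 45.9 ± 16.4 in the controls and was not called (adjusted p = 0.071). With equal totals 8 genes of this list were higher. Without control replicate 4, 5 were called, 3 higher and 2 lower.

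Genes of the E proteins that pair with neurogenin 3, and of the ID proteins that bind these, moved both ways. Of 6 tested E protein and ID protein genes, 3 were higher, 1 lower and 2 not called, beside 25.3% of all genes higher and 12.1% lower. With equal totals 4 were higher and 0 lower, and under the other 3 scalings 1 each way. Their median change was 0.17, or 0.08 relative to the median of all genes. With a library left out, 1 was higher and 1 lower in 7 of 8 fits, all but the fit without knockout replicate 2. Tcf3, which encodes the E proteins E12 and E47, averaged 69.2 ± 3.50 FPKM in the knockouts and 95.7 ± 4.13 in the controls (log2 change -0.46, adjusted p = 0.00101), but its most abundant transcript alone was not called (adjusted p = 0.206) and its sign turned with equal totals (0.25). Id1, whose protein binds E proteins and keeps them off DNA, averaged 4.77 ± 0.913 and 2.57 ± 0.266 FPKM in knockouts and controls (0.69, adjusted p = 0.00227). Tcf4 and Id2 were called higher at adjusted p = 0.0342 and 0.0488, and each lost its call in all but the fit without knockout replicate 2 when a library was left out. Of the genes known downstream of Neurog3 in the mouse endocrine pancreas, 1 of 8 listed was tested, Cdk5r1, the CDK5 activator, at 1.73 ± 0.298 FPKM in the knockouts and 2.48 ± 0.305 in the controls (adjusted p = 0.0359). Cdk5r1 lost its call in 5 of 8 fits that left out a library, those without knockout replicates 2 or 4 or control replicates 1, 2 or 3, and its sign turned with equal totals (0.13).

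Notch signalling restrains Neurog3 in the pancreas through HES proteins. Of 14 tested Notch pathway genes, 5 were lower, 0 higher and 9 not called, beside 12.1% of all genes lower and 25.3% higher. Their median change was -0.21, and with equal totals 5 were higher and 0 lower. Hes5, a repressor that Notch induces, averaged 1.32 ± 0.124 FPKM in the knockouts and 2.59 ± 0.190 in the controls (adjusted p = 0.000662). The receptor Notch1 averaged 3.30 ± 0.609 and 6.01 ± 0.546 FPKM (adjusted p = 0.00187). The ligand Jag2 and the feedback inhibitor Nrarp were called at adjusted p = 0.0261 and 0.036, but turned in sign with equal totals, and 2 genes of the list were called without knockout replicate 3, control replicate 1 or control replicate 2.

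**Figure D4:**
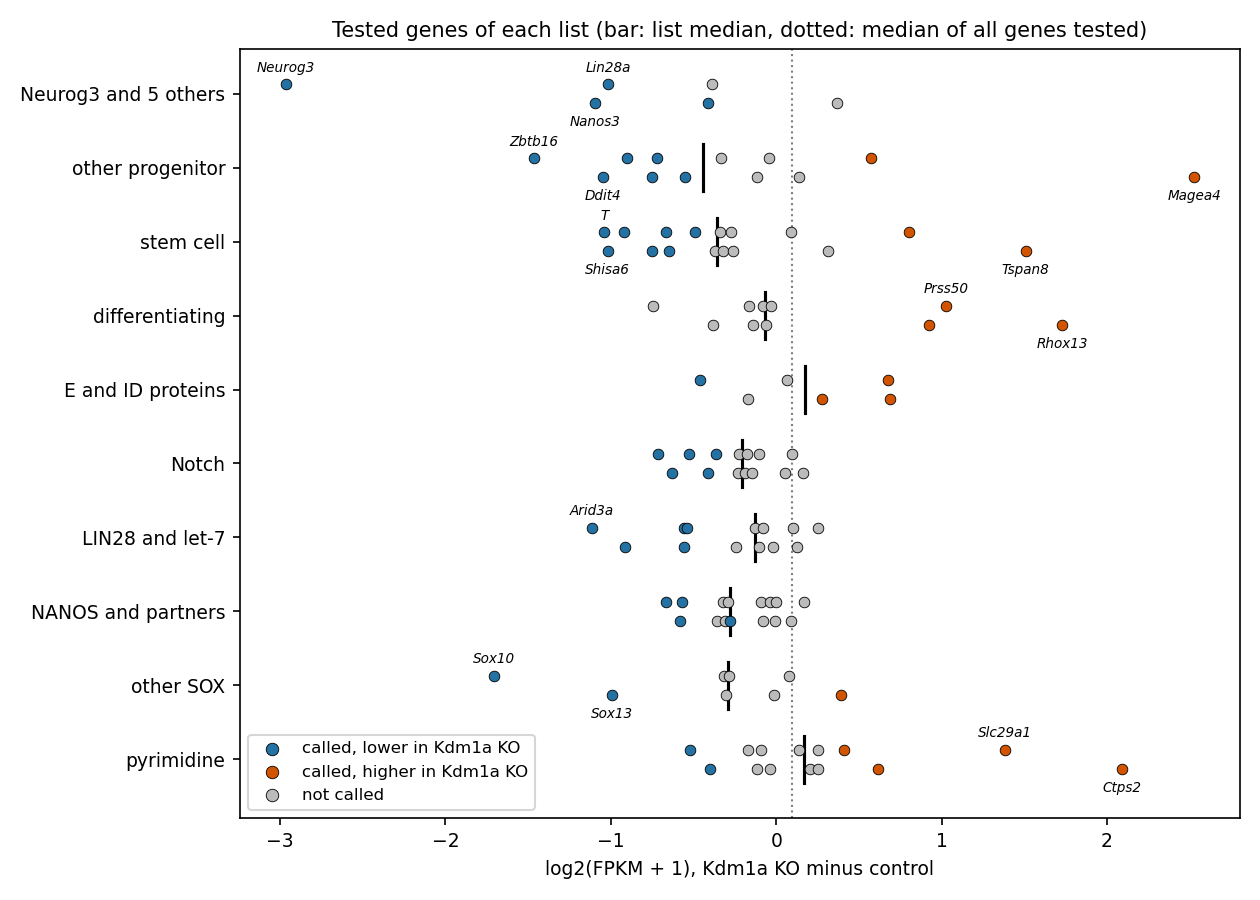
Difference of log2(FPKM + 1), Kdm1a KO minus control, for the tested genes of each list, coloured by call, with vertical bars for list medians and a dotted line for the median of all genes tested, 0.09. Genes beyond 0.95 in either direction are labelled, and Neurog3 at -2.97 and Magea4 at 2.53 are the outermost points.

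The lists around the RNA-binding members were read next. In the LIN28 and let-7 list, 5 of 13 tested genes were lower, 0 higher and 8 not called, beside 12.1% of all genes lower and 25.3% higher. With equal totals 6 were higher and 0 lower. Arid3a, a DNA-binding protein and let-7 target, averaged 5.11 ± 0.474 FPKM in the knockouts and 12.3 ± 1.22 in the controls (log2 change -1.12, adjusted p = 4.67e-05). Igf2bp1, an mRNA-binding protein that let-7 represses, averaged 24.5 ± 5.43 and 46.5 ± 4.01 FPKM (-0.92, adjusted p = 0.00123). With equal totals both lost their calls (adjusted p = 0.0867 and 0.439). Trim71, an RNA-binding let-7 target, averaged 33.1 ± 3.24 and 48.4 ± 2.18 FPKM, and the chromatin protein gene Hmga1 148.4 ± 12.6 and 219.3 ± 21.8 FPKM in knockouts and controls, and equal totals turned the sign of both. Lin28b, the paralog, named after its values were seen, averaged 13.9 ± 2.33 FPKM in the knockouts and 15.1 ± 1.07 in the controls and was not called (adjusted p = 0.435).

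Among 15 genes of the NANOS family and its partners, 4 were lower, 0 higher and 11 not called, beside 12.1% of all genes lower and 25.3% higher. With equal totals 7 were higher and 0 lower. Nanos2, the paralog that acts in stem cells, averaged 3.33 ± 0.543 FPKM in the knockouts and 6.15 ± 2.40 in the controls (adjusted p = 0.045), and the groups overlapped. Cnot1, the scaffold of the CCR4-NOT deadenylase, averaged 53.8 ± 13.9 and 79.2 ± 9.67 FPKM, and the subunits Cnot3 and Cnot6l were called at adjusted p = 0.0218 and 0.0273. These 3 subunits turned in sign with equal totals. The list had 2 calls or fewer without knockout replicate 3 or 4 and without any of the 4 control replicates.

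Among other SOX genes, 2 of 8 tested were lower, 1 higher and 5 not called, beside 12.1% of all genes lower and 25.3% higher. With equal totals 1 was lower and 3 higher. Sox10, a factor of neural crest and glia, was at 0.204, 0.345, 0.245 and 0.202 FPKM in knockout replicates 1 to 4, against 2.53, 2.80, 4.49 and 2.75 FPKM in control replicates 1 to 4. It was low in every library and 12.6-fold lower in the knockouts (log2 change -1.71, adjusted p = 3.44e-05). Sox13 averaged 17.7 ± 1.39 FPKM in the knockouts and 36.6 ± 7.39 in the controls (adjusted p = 0.000627), but lost its call with equal totals (adjusted p = 0.284). Sox30, a factor of spermatid development, averaged 3.81 ± 0.214 and 2.68 ± 0.278 FPKM (adjusted p = 0.00938) and was not called after quantile normalization (0.101) or with small RNA genes removed (0.0979). The list had 6 calls without control replicate 2.

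Around Upp1, 4 of 14 tested genes of uridine and pyrimidine metabolism were higher, 2 lower and 8 not called. These counts were near the shares over all genes tested, 25.3% higher and 12.1% lower. With equal totals 12 were higher. Ctps2, a CTP synthase, averaged 20.4 ± 2.39 FPKM in the knockouts and 4.00 ± 0.390 in the controls (5.10-fold higher, log2 change 2.09, adjusted p = 4.69e-06). Slc29a1, a nucleoside transporter, averaged 37.7 ± 5.89 and 14.3 ± 5.48 FPKM (1.38, adjusted p = 0.0011). Umps, which makes UMP, averaged 30.0 ± 3.90 and 19.2 ± 2.03 FPKM (adjusted p = 0.00218). Pgm2, a phosphoglucomutase gene, averaged 40.8 ± 2.32 FPKM in the knockouts and 59.0 ± 3.30 in the controls (adjusted p = 0.000649), with the opposite sign with equal totals (0.19).

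RNA of other testis cells was low beside the germ cell genes. The 8 germ cell markers summed to 1081 to 1268 FPKM in the knockouts and 1052 to 1233 FPKM in the controls. Of these 8, 2 were called higher, 2 lower and 4 not called, beside 25.3% of all genes higher and 12.1% lower. Over the 9 of 10 Sertoli markers analysed here the sum was 22.7 to 57.6 FPKM in the knockouts and 15.97 to 52.8 in the controls, with p = 0.229 for the mean log2 level (exact permutation test, two-sided, 70 assignments). That level was 2.21 in control replicate 1 and 1.19 to 1.41 in the other controls, against 1.37 to 2.27 in the knockouts. Over 4 of 5 endothelial markers the sum was 11.2 to 12.1 and 3.98 to 5.62 FPKM, and over 2 of 7 red blood cell markers 1.603 to 2.50 and 0.282 to 0.760 FPKM, in knockouts and controls. Those lists gave an exact permutation p = 0.0286, the smallest this design allows, and 0.0858 after Benjamini-Hochberg adjustment over 6 lists. In the fit over all genes 2 of 3 tested endothelial genes were higher, beside 25.3% of all genes. They were Pecam1 at 3.28-fold (limma adjusted p = 8.46e-05) and Tek at 3.94-fold (adjusted p = 0.000115), both named after their values were seen. The 6 peritubular markers summed to 21.9 to 24.3 FPKM in the knockouts and 33.7 to 38.3 in the controls (exact permutation p = 0.0286 for the sum), led by Col1a1, called lower (limma adjusted p = 5.19e-05), at 15.6 ± 0.285 and 28.7 ± 2.22 FPKM, while their mean log2 level differed by -0.02 (exact permutation p = 0.943). Of the Leydig and macrophage markers, 1 of 6 each was analysed here, at no more than 2.36 FPKM in any library. The part of these cell types in the changes of the progenitor genes was not tested.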

How the data were processed

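RNA was measured in 8 libraries of sorted Oct4-GFP-positive germ cells, 4 Kdm1a KO and 4 control. The authors deposited FPKM for 45550 transcripts, 1 column per library. Per the labels' protocols, 250 ng of RNA went into stranded mRNA libraries, and the submitters' processing notes name the mm10 build with TopHat, Bowtie, Cufflinks and Cuffdiff, without versions. Fragments of sequence shared between transcripts are split by estimate, and FPKM move with a few very abundant RNAs.

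Transcript values of the same gene identifier were added, giving 17589 genes. Those averaging at least 1 FPKM, 13483 in all, were tested on log2(FPKM + 1), pseudocount 1, with limma 3.58.1 in R 4.3.3 (lmFit, eBayes with trend, group as the only term, two-sided, Benjamini-Hochberg over all of them, called under 0.05). FPKM are not counts, so no count model was used. Depth was inferred from low FPKM of 7800 single-transcript genes longer than 600 bases: of values up to 20 fragments, 61.2% to 65.8% lay within 0.1 of a whole number, against 20% by chance. It describes precision only, and covers counting error only. GENCODE M21 (GRCm38, equal to mm10) gave positions and held 17257 of the genes. Scripts were tested on simulated data.

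The members and lists were chosen with earlier results of these data known. Named genes were the 6 members, Kdm1a, Ddx4 and Pou5f1, up to 4 called genes of each pathway list by adjusted p, and the 5 genes nearest to Neurog3, without numbered models, small RNAs and pseudogenes. Dazl, Kit, Col1a1, Pecam1, Tek, Tspan15, Lin28b, the genes that overlap the members and those the list plot labels beyond the rule were named after their values were seen. Alternatives covered the pseudocount, the filter, scaling, the limma trend, the most abundant transcript, the replicate number as a block, each library left out, Dazl in place of Ddx4 and, added after seeing the data, protein-coding genes only.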

Additional observations from a re-analysis of the deposited data

Results flagged for a closer look

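In 8 of 100 groups of 4 libraries examined, the outermost library lay apart from the other 3 by more than Dixon's criterion at the 95% level allows. Chance flags about 1 in 20 groups. None of the 6 progenitor genes was among them. Knockout replicate 2 was the library in 5 cases: Tspan8 at 25.63 FPKM, against 13.8 to 15.1 in the other knockouts, Rhox13 at 76.25 against 57.19 to 59.96, Id1 at 6.138 against 4.246 to 4.425, Hes5 at 1.137 against 1.369 to 1.404, and Jag2 at 7.952 against 9.872 to 10.04. Control replicate 3 was the library for Sox10, at 4.489 FPKM against 2.526 to 2.796 in the other controls, and for Kdm1a, at 91.95 against 48.08 to 53.95. Control replicate 2 was the library for Cnot6l, at 22.41 FPKM against 27.91 to 28.88. Without the library concerned, Tspan8, Rhox13, Id1, Hes5, Sox10 and Kdm1a kept their calls, as did Jag2 without knockout replicate 2 and Cnot6l without control replicate 2.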

How the results depend on the processing

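Neurog3 was called lower under every alternative run (adjusted p at most 0.000743). For the other members and lists, equal totals changed most. With equal totals 9549 genes were higher and 151 lower; Sox3 was at 0.29, Nanos3 at -0.44, Lin28a at -0.30 and Sox15 at 0.84; the progenitor, differentiating, NANOS and pyrimidine lists had 5, 8, 7 and 12 calls and the pancreas list 0; and the sign turned for Tcf3 (0.25), Cdk5r1 (0.13), Jag2 (0.25), Nrarp (0.26), Trim71 (0.17), Hmga1 (0.16), Cnot3 (0.43), Cnot6l (0.12), Cnot1 (0.13), Pgm2 (0.19) and Ddx4 (0.64). A mean of at least 5 FPKM left 2164 genes higher, 2 bHLH partners, 0 pancreas genes, 3 Notch genes and 1 SOX gene called, and gave no value for Sox15. With small RNA genes removed 2241 genes were higher, Upp1 was at -0.51, and 2 bHLH partners, 0 pancreas genes and 2 NANOS genes were called. Quantile normalization gave 2648 genes lower, and it, median-ratio scaling and the most abundant transcript each gave 2 bHLH partners; 5 SOX genes were called after median-ratio scaling and 2 NANOS genes with the most abundant transcript. Without a filter, or with a mean of at least 0.1 FPKM, 8 Notch and 5 SOX genes were called. Relative to Dazl, Sox3 was at -0.59 and Lin28a at -1.20. The sum of peritubular markers differed by -12.1 FPKM. The cause of these differences was not tested.

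Deviations of same-numbered libraries correlated across groups at 0.224, -0.119, -0.133 and -0.0928 for replicates 1 to 4. These values gave no clear sign that the numbers pair the samples, but with no reference to set them against they cannot exclude it. With the replicate block 2983 genes were higher and 1408 lower, and 2 bHLH partners, 0 pancreas genes and 3 Notch genes were called. All 4 member calls held under it (adjusted p = 0.000743 for Neurog3, 0.0246 for Sox3, 0.0137 for Nanos3 and 0.00178 for Lin28a).

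With each library left out in turn, genes higher ranged from 2621 to 3816 and genes lower from 1165 to 2034. The log2 change ranged from -3.09 to -2.81 for Neurog3, -0.49 to -0.35 for Sox3, -1.25 to -0.90 for Nanos3, -1.05 to -0.96 for Lin28a, -0.54 to -0.28 for Upp1 and 0.26 to 0.51 for Sox15. Calls ranged from 5 to 11 in the stem cell list, 3 to 5 in the differentiating list, 2 to 4 among bHLH partners, 0 to 1 in the pancreas list, 2 to 5 in the Notch list, 0 to 4 in the NANOS list and 3 to 6 in the SOX list. Among named genes other than the members, 83 values under alternatives lost the call and 11 turned in sign.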
